A study of Mus musculus with 6 samples.

Results

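NF-kB is a family of dimeric transcription factors that drives the inflammatory response of fibroblasts and other cells. The 10 genes described here encode 4 of its subunits (Rela, Relb, Nfkb1 and Nfkb2), 4 proteins of the inhibitory IkB family (Nfkbia, Nfkbib, Nfkbie and Nfkbiz), the kinase IKK-beta (Ikbkb) and the feedback enzyme A20 (Tnfaip3). They were taken by symbol from the deposited RNA count table, which lists 24516 genes, and all 10 were found. All 10 also passed the filter on low counts, as did 13427 genes in all. The cell line, iMGT-Myh6-eGFP-MEF, derives from mouse embryonic fibroblasts and expresses Mef2c, Gata4 and Tbx5 (MGT) when given doxycycline (1 ug/mL), a treatment that pushes fibroblasts towards a cardiomyocyte fate. Its name also gives an eGFP reporter and Myh6, which encodes a cardiac myosin heavy chain. On day -1, before doxycycline was added, the cells were transfected with an siRNA against Junb (siJunb), whose product JunB forms AP-1 dimers, with an siRNA against H1f0 (siH1f0), which encodes linker histone H1.0, or with a control siRNA (siControl). Each of the 3 groups held 2 libraries of poly(A)-selected RNA, labelled as biological replicates of this single line, and all groups received doxycycline, so no uninduced cells are part of the comparison. Harvest was at day 1 by the sample labels but at day 3, after sorting for GFP+ cells, by the text on the series, and the sources used here do not settle which is right.

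In resting cells IkB proteins bind NF-kB dimers and keep them out of the nucleus. Signals from receptors such as those for TNF and interleukin-1 activate the IKK kinase complex, which marks the classical inhibitors for destruction and so frees the dimers. The freed dimers switch on chemokine, adhesion and acute-phase genes and also several genes of their own inhibitors, Nfkbia and Tnfaip3 among them, which closes a feedback loop. A slower branch of the pathway converts the precursor protein of Nfkb2 into a mature subunit that pairs with RelB.

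Promoter sequence shows which of these genes carry the letters that NF-kB itself is known to bind. RefSeq promoters (GRCm38.p6) were at hand for 6 of the 10 genes, in 9 windows of the 250 bases before a start site: Nfkb2, Rela, Nfkbia, Nfkbib, Nfkbie and Tnfaip3. The kappaB consensus, searched on both strands, was present in 6 of the 9 windows, which belong to 4 of the 6 genes, and in 3.90% of all 32841 promoter windows of that length. Windows 1, 2 and 3 of Nfkb2 each held a match, and its windows 2 and 3 overlap. The share of all genes, rather than windows, with a match was not computed. The AP-1 motif TGANTCA, searched the same way, was in 3 of the 9 windows and in 6.75% of all windows. The windows below are those of Nfkbia and Tnfaip3, inhibitors with a match, of Nfkb2, a subunit with overlapping matches, and of Nfkbib, an inhibitor whose window holds neither motif. Capitals mark the matches, 10 letters long for kappaB, with a pair of them overlapping in Nfkb2, and 7 letters long for AP-1 in Tnfaip3. A match is a description of letters and not evidence of binding.
Nfkbia, chr12:55492648-55492897, minus strand: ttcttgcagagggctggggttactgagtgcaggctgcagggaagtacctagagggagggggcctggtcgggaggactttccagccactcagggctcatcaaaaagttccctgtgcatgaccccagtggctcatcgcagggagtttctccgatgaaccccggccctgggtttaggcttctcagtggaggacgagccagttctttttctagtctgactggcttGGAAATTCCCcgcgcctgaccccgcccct
Tnfaip3, chr10:19015411-19015660, minus strand: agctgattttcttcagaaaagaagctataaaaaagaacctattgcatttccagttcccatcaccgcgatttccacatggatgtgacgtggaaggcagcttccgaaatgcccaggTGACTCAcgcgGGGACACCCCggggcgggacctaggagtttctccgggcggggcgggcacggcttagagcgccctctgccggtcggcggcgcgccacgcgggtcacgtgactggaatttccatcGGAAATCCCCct
Nfkb2, chr19:46304487-46304736, plus strand: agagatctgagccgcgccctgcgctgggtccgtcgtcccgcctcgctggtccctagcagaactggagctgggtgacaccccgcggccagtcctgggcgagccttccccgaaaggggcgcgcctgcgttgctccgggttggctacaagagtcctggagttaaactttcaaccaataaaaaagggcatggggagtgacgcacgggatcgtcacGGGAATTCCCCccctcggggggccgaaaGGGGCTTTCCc
Nfkbib, chr7:28766645-28766894, minus strand: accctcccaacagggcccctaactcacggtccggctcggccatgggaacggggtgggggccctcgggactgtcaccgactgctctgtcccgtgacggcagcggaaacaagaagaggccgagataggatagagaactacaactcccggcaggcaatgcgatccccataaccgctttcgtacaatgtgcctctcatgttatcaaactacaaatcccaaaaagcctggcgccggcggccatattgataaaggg

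The match nearest to a start site lay 24 bases before it in Nfkbia, 7 in Tnfaip3 and 6 in Nfkb2, measured from the centre of the match. Nfkbie, with the letters GGGGGATTCC 101 bases before its start, also held an AP-1 match. So did window 2 of Nfkb2 (TGAATCA), which is not the window printed above. Rela held neither motif in its window.

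The libraries held 48690447 to 65746378 counts in the knockdown groups and 85979630 and 65998575 counts in siControl, and a tested gene had a median of 1484 to 2682 counts. The siRNA targets followed the labels: Junb was at 10.5 and 8.73 CPM (counts scaled to a common library total) in siJunb against 39.5 and 35.6 CPM in siControl, and H1f0 was at 52.3 and 55.3 CPM in siH1f0 against 808 and 741 CPM in siControl. H1f0 was also slightly lower in siJunb, at 653 and 638 CPM (log2 change -0.23, edgeR adjusted p = 0.021). Junb was at 30.4 and 31.7 CPM in siH1f0, below both siControl libraries, but its log2 change of -0.29 did not pass (edgeR adjusted p = 0.0778). Replicates were less alike in siControl than in the knockdowns: chi-square over genes, divided by its degrees of freedom, was 3.80 in siJunb, 3.85 in siH1f0 and 74.6 in siControl. The precursor of ribosomal RNA, Rn45s, was at 6547 and 4986 CPM in siJunb, 3082 and 3479 CPM in siH1f0, and 18980 and 6274 CPM in siControl. Rn45s enters the chi-square above, and the value without it was not computed. The part of Rn45s in the results was not tested. All 7 calls of the 10 genes against siControl held without siControl 1 and without siControl 2, but such a fit has a lone siControl library, which is assumed to vary like the knockdown pairs, and many more genes pass in it. Fibroblast markers summed to 4727 to 5038 CPM in every library, most of it from Vim (2575 to 2889 CPM), Col1a1 and Col1a2. Col3a1 was at 1.24 to 1.66 CPM, and Lum and Thy1 were at or near 0. Ptprc, Tyrobp and Cd3e of the leukocyte list were at 0 in all 6 libraries. The leukocyte list as a whole summed to 14.8 and 15.2 CPM in siJunb, 11.0 and 12.9 CPM in siH1f0, and 14.3 and 11.2 CPM in siControl, most of it from Cd14, at 8.74 to 12.8 CPM. Endothelial markers summed to at most 0.304 CPM and epithelial markers to at most 0.0608 CPM. Cardiomyocyte markers summed to 124 and 125 CPM in siJunb, 172 and 181 CPM in siH1f0, and 168 and 152 CPM in siControl, with Tnnt2 the most abundant of them. Single markers were called within these lists. In siJunb the cardiac genes Actc1 (-2.43), Myl7 (-1.63) and Tnni3 (-0.92) were lower and the fibroblast genes Dcn (1.68) and Pdgfra (0.27) higher than in siControl, as log2 changes (edgeR, adjusted p up to 0.0442). In siH1f0, Tnni3 (0.68), Dcn (0.65) and Col1a2 (0.34) were higher than in siControl (edgeR, adjusted p up to 0.0114). Against siControl, 6 of 8 tested fibroblast markers were not called in siJunb, and likewise 6 of 8 in siH1f0. Of the 8, 3 had a negative log2 change in siJunb and 5 in siH1f0, with medians of 0.11 and -0.04. Of 7 tested cardiac markers, 4 were not called in siJunb and 6 in siH1f0 against siControl. Between the knockdowns, 5 of the 7 were higher in siH1f0 than in siJunb. Of 8 tested fibroblast markers, 1 was higher and 4 were lower in siH1f0 than in siJunb. Among all genes tested, 12.2% were called higher and 13.8% lower in that comparison. In bulk RNA, fewer cells of a type and less RNA per cell cannot be told apart.

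All 10 genes were transcribed in these fibroblasts, with levels that differed widely between them. Per kilobase of the deposited gene length, Rela, which encodes the activating subunit p65, was the highest at 45.1 ± 1.76 CPM per kb in siJunb, 47.0 ± 0.427 in siH1f0 and 46.3 ± 1.39 in siControl (SD, n = 2 each). In siControl it was followed in order by Nfkbia (31.8), Nfkb2 (27.2), Nfkb1 (23.5), Nfkbiz (22.0), Ikbkb (15.8), Relb (9.38), Nfkbib (8.72), Tnfaip3 (1.52) and Nfkbie (1.16), all in mean CPM per kb. Neighbours in that order did not overlap between their siControl libraries, except Relb and Nfkbib, so the order of that pair is not resolved. The order, and with it the swaps named next, also depends on the gene length used. Nfkb1 has 4118 bases in the deposited column but 12061 exonic bases in the GENCODE annotation, and Ikbkb has 4534 and 19078. The order by GENCODE lengths was not worked out. The order was not the same in each group: in siJunb the mean of Nfkb2 (31.2 CPM per kb) lay above that of Nfkbia (30.0), and in siH1f0 it did so by more, at 28.0 against 23.6 CPM per kb. In siJunb, Nfkbiz (24.6) also lay above Nfkb1 (23.5). Nfkbib lay above Relb in both knockdowns, at 10.7 against 9.42 CPM per kb in siJunb and 8.22 against 7.36 in siH1f0. Within each knockdown group named, the libraries of the paired genes did not overlap. For Relb and Nfkbib no swap against siControl is shown, because their siControl libraries overlapped. Nfkbie, which encodes IkB-epsilon, was the least abundant, with 134 to 228 counts per library.

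**Figure D1:**
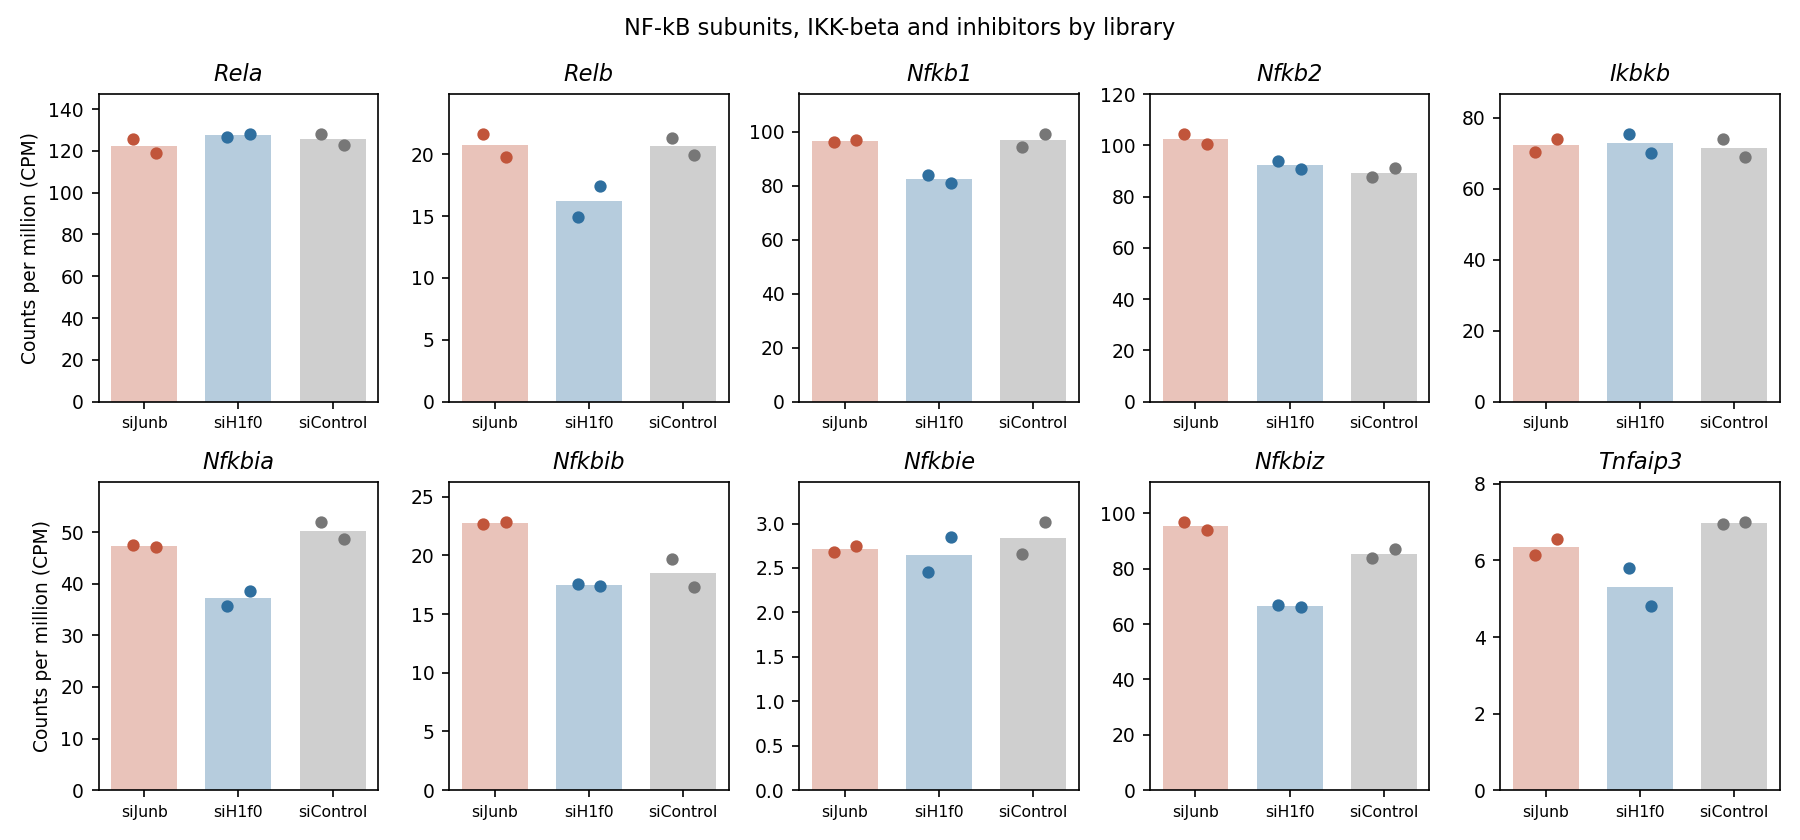
Level of each gene in CPM (vertical axis, starting at 0 and scaled per gene) in siJunb, siH1f0 and siControl. Points are single libraries and bars are the mean of 2. The siH1f0 points of Nfkb1, Relb, Nfkbia, Nfkbiz and Tnfaip3 lie below both siControl points, and those of Rela and Ikbkb overlap siControl.

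The first comparison asks which of these genes differ in level between siJunb and siControl. Nfkb2, Nfkbib and Nfkbiz were higher in siJunb than in siControl, by 1.18-, 1.26- and 1.14-fold, and no gene of the group was lower. The subunit genes Rela, Relb and Nfkb1 and the kinase gene Ikbkb did not pass the test, with log2 differences between -0.0023 and 0.05. By edgeR's quasi-likelihood test 3 of 10 genes were called higher and 0 lower (also 3 by DESeq2, and 3 in either direction at an unadjusted p under 0.05, which 31.7% of all genes passed), against 8.63% of the 13427 genes tested called higher, 7.82% lower and 16.5% in either direction. The median log2 change of the 10 genes was 0.04, and that of all genes tested was 0.00.

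Nfkb2, which encodes the precursor p100 and the mature subunit p52, was at 105 and 101 CPM in siJunb, against 87.6 and 91.2 CPM in siControl. Both siJunb libraries lay above both siControl libraries. The log2 change was 0.24 ± 0.05 (SE; edgeR quasi-likelihood test, adjusted p = 0.0196). In the GRCm38.p6 annotation Nfkb2 lies on chromosome 19 from 46300994 to 46312400, and 11.6% of its exonic bases also belong to the long noncoding RNA AC114539.1 and 6.52% to Psd, both on the opposite strand. The deposited counts hold no gene of the name AC114539.1, so its level could not be read. Psd was at 22.8 and 21.0 CPM in siJunb, against 22.6 and 22.0 CPM in siControl, and these groups overlapped.

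Nfkbib encodes IkB-beta, a classical inhibitor that binds dimers for longer after a stimulus than IkB-alpha does. Its level was 22.7 and 22.8 CPM in siJunb, against 19.7 and 17.3 CPM in siControl, a log2 change of 0.33 ± 0.07 (adjusted p = 0.0188). The siJunb libraries were nearly equal and above both siControl libraries, which differed more from each other. Exons of Nfkbib share 14.5% of their bases with Ccer2, which was at or near 0 CPM, and 1.94% with Sirt2, at 60.6 and 58.0 CPM in siJunb against 61.5 and 58.0 CPM in siControl. Nfkbiz encodes IkB-zeta, a nuclear member of the IkB family that is known to help switch on a second set of inflammatory genes rather than to hold dimers in the cytoplasm. It was at 96.9 and 94.0 CPM in siJunb, against 83.8 and 87.0 CPM in siControl (log2 change 0.20 ± 0.05, adjusted p = 0.0356), again without overlap.

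The other inhibitors gave no call in siJunb. Nfkbia, which encodes IkB-alpha, the fast feedback inhibitor, was at 47.6 and 47.1 CPM in siJunb, against 51.9 and 48.6 CPM in siControl, with a log2 difference of -0.05 (95% interval -0.19 to 0.09). Tnfaip3, whose product A20 removes ubiquitin chains from signalling proteins upstream of IKK, was at 6.14 and 6.55 CPM, against 6.94 and 7.00 CPM (log2 difference -0.10, interval -0.37 to 0.16). Nfkbie had the widest interval, from -0.37 to 0.32, at its low level of 2.68 and 2.75 CPM in siJunb, against 2.65 and 3.02 CPM in siControl. In CPM, libraries did not overlap for 5 of the 10 genes, 3 higher and 2 lower, and for 57.5% of all genes tested, 23.3% higher and 34.3% lower.

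The 3 calls rest on the spread shared over all 6 libraries. They held without either siControl library, but 0 of the 10 genes were called in siJunb with only the 4 libraries compared (adjusted p from 0.0557 to 0.1 for the 3), without siJunb 1, siJunb 2, siH1f0 1 or siH1f0 2 (adjusted p from 0.0556 to 0.26), while the log2 changes stayed between 0.16 and 0.42. Nfkbiz also missed the threshold with total counts as the only scaling (0.0623). With only the 4 libraries compared, 8.26% of all genes tested were called, against 16.5% in the fit to all 6. The share of all genes called also fell when a siJunb or siH1f0 library was left out.

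The second comparison puts the same question to siH1f0, and here 4 of the 10 genes were lower in siH1f0 than in siControl and 0 were higher. They were the subunit genes Nfkb1 (0.843-fold) and Relb (0.777-fold) and the IkB genes Nfkbia (0.733-fold) and Nfkbiz (0.772-fold). Of all genes tested, 4.27% were called lower, 2.27% higher and 6.55% in either direction. The median log2 change of the 10 genes was -0.18, against 0.00 for all genes tested.

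Nfkbia showed the largest of these decreases. Its level was 35.8 and 38.6 CPM in siH1f0, against 51.9 and 48.6 CPM in siControl, which is -0.45 ± 0.06 on the log2 scale (SE; edgeR, adjusted p = 0.00405). All siH1f0 values lay below all siControl values. Nfkbia is on chromosome 12 from 55489409 to 55492647, and its promoter is the one printed above with a kappaB match 24 bases before the start. The call was lost without siH1f0 1 (-0.40, adjusted p = 0.0907).

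Nfkbiz was at 67.1 and 66.1 CPM in siH1f0, against 83.8 and 87.0 CPM in siControl (log2 change -0.37 ± 0.05, adjusted p = 0.00482). The groups did not overlap. Without siH1f0 1 or siH1f0 2 its adjusted p was 0.0823 and 0.0985. The gene lies on chromosome 16 from 55811375 to 55838954.

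Among the subunits, Nfkb1, which encodes the precursor p105 and the mature p50, was at 83.9 and 81.2 CPM in siH1f0, against 94.6 and 99.4 CPM in siControl (log2 change -0.25 ± 0.05, adjusted p = 0.0302). Relb, which encodes the partner of p52, was at 15.0 and 17.4 CPM, against 21.3 and 19.9 CPM (-0.36 ± 0.09, adjusted p = 0.0472). For each of them both siH1f0 values lay below both siControl values. A fit restricted to the siH1f0 and siControl libraries ended both calls (adjusted p = 0.0986 and 0.101), as did a fit without any 1 siJunb or siH1f0 library (adjusted p from 0.0969 to 0.368), and that of Relb also with total counts as the only scaling (0.0532). Nfkb1 lies on chromosome 3 from 135584655 to 135691969 and Relb on chromosome 7 from 19606217 to 19629438.

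Rela, Nfkb2 and Ikbkb did not follow them. Rela was at 127 and 128 CPM in siH1f0, against 128 and 123 CPM in siControl, and its 95% interval for the log2 difference ran from -0.11 to 0.12. Nfkb2 was at 93.8 and 90.7 CPM, against 87.6 and 91.2 CPM (interval -0.09 to 0.15). Ikbkb, the catalytic kinase of the complex that releases the dimers, was at 75.5 and 70.0 CPM, against 73.9 and 68.9 CPM (interval -0.13 to 0.15). For these 3 genes the intervals leave room for a change of at most 0.15 on the log2 scale in either direction.

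Tnfaip3 came close to a call. It was at 5.79 and 4.81 CPM in siH1f0, against 6.94 and 7.00 CPM in siControl, without overlap, with a log2 difference of -0.41 ± 0.12 (SE) that did not pass (adjusted p = 0.0757). It passed as lower without siControl 1 (adjusted p = 0.0172), without siControl 2 (0.0116) and with no filter on low counts (0.0095). Nfkbib, at 17.6 and 17.4 CPM in siH1f0 and 19.7 and 17.3 CPM in siControl, passed as lower only without siControl 2 (-0.18, adjusted p = 0.0461), the siControl library nearer to siH1f0. Nfkbie was at 2.46 and 2.84 CPM in siH1f0, against 2.65 and 3.02 CPM in siControl. In CPM, libraries did not overlap for 5 of the 10 genes, all lower in siH1f0, and for 50.7% of all genes tested, 22.0% lower and 28.7% higher. The number of the 10 genes called was 5 without siControl 1, 6 without siControl 2, 2 without either siJunb library, 0 without siH1f0 1 and 1 without siH1f0 2. It was 2 in a fit restricted to the siH1f0 and siControl libraries. The share of all genes called moved as well: 21.0% without siControl 1, 35.9% without siControl 2, 2.44% and 2.46% without siJunb 1 and siJunb 2, 0.843% and 0.940% without siH1f0 1 and siH1f0 2, and 2.44% in the restricted fit.

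**Figure D2:**
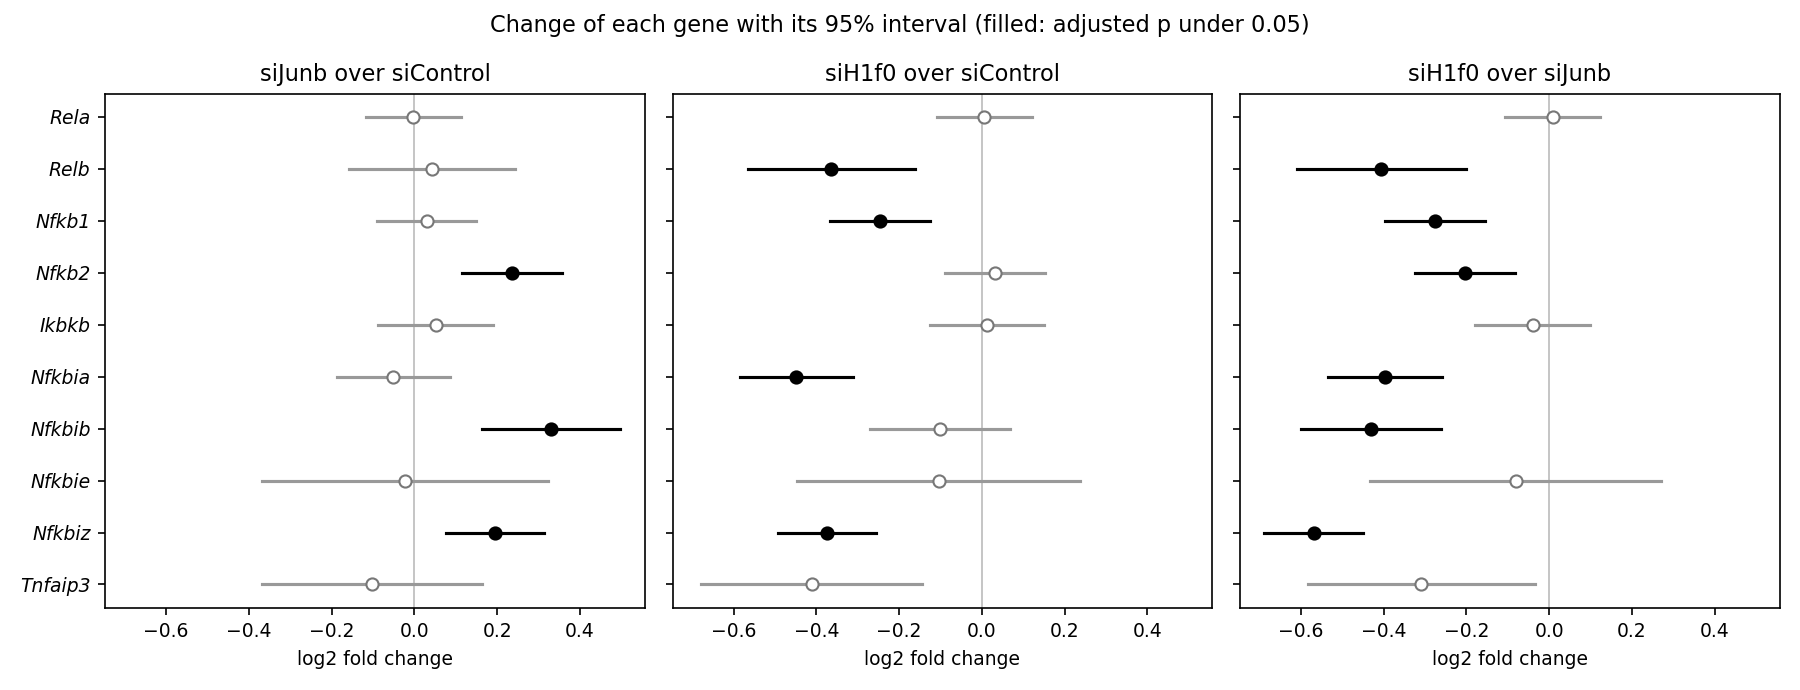
Log2 fold change of each gene (horizontal axis) with its 95% interval from the fit to 6 libraries, for siJunb over siControl, siH1f0 over siControl and siH1f0 over siJunb. Filled points passed at an adjusted p under 0.05: 3 genes to the right of 0 in the left panel, 4 to the left of 0 in the middle panel and 6 to the left of 0 in the right panel.

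The knockdowns were also compared with each other, which tests the difference between their effects directly. The siControl libraries enter here only through scaling and the shared spread. In siH1f0, 6 of the 10 genes were lower than in siJunb and 0 were higher, while 13.8% of all genes tested were called lower, 12.2% higher and 25.9% in either direction. The 6 were Nfkbiz (log2 change -0.57 ± 0.05, adjusted p = 1.74e-04), Nfkbib (-0.43 ± 0.07, 0.00368), Relb (-0.41 ± 0.09, 0.0118), Nfkbia (-0.40 ± 0.06, 0.00208), Nfkb1 (-0.28 ± 0.05, 0.0061) and Nfkb2 (-0.20 ± 0.05, 0.0229). The median log2 change of the 10 genes was -0.29, against 0.00 for all genes tested.

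For Nfkbiz the levels were 67.1 and 66.1 CPM in siH1f0, against 96.9 and 94.0 CPM in siJunb, a 0.674-fold ratio. Nfkbiz was the gene of the group that varied most between group means. It was also the one gene that had been called in both knockdowns against siControl, higher in siJunb and lower in siH1f0. Nfkbiz, Nfkbib and Nfkbia kept their calls in this comparison under each of the 14 alternatives, with adjusted p up to 0.0065, 0.0482 and 0.0421. Relb lost its call without siJunb 1 (0.115) and without siH1f0 1 (0.118). Nfkb1 and Nfkb2 lost theirs without any 1 siJunb or siH1f0 library (adjusted p from 0.0519 to 0.202), and Nfkb2 also with total counts as the only scaling (0.056).

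Rela, Ikbkb and Nfkbie did not pass between the knockdowns, with 95% intervals of the log2 difference from -0.11 to 0.12, from -0.18 to 0.10 and from -0.43 to 0.27. Tnfaip3 was at 5.79 and 4.81 CPM in siH1f0, against 6.14 and 6.55 CPM in siJunb, and its difference of -0.31 did not pass (adjusted p = 0.0924), although it did with only the 4 libraries compared (0.028) and without siControl 1 or siControl 2 (0.0237 and 0.0242). In CPM, libraries did not overlap for 7 genes lower and 1 gene higher in siH1f0, and for 72.5% of all genes tested, 28.7% lower and 43.8% higher.

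Since Rela differed little between the groups, it offers a yardstick inside each library. The ratio of Nfkbia to Rela counts was 0.379 and 0.396 in siJunb, 0.283 and 0.301 in siH1f0, and 0.405 and 0.395 in siControl. The siH1f0 ratios lay below all others, while those of siJunb and siControl overlapped. The ratio of Relb to Rela was 0.172 and 0.166 in siJunb, 0.118 and 0.136 in siH1f0, and 0.166 and 0.162 in siControl, and again both siH1f0 ratios were the lowest. The ratio of Nfkb2 to Nfkb1, the genes of the paired precursors, was 1.09 and 1.04 in siJunb, 1.12 and 1.12 in siH1f0, and 0.927 and 0.918 in siControl. Both knockdowns lay above siControl, with Nfkb2 called higher in siJunb and Nfkb1 called lower in siH1f0. These ratios were chosen after levels had been seen and were not tested.

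**Figure D3:**
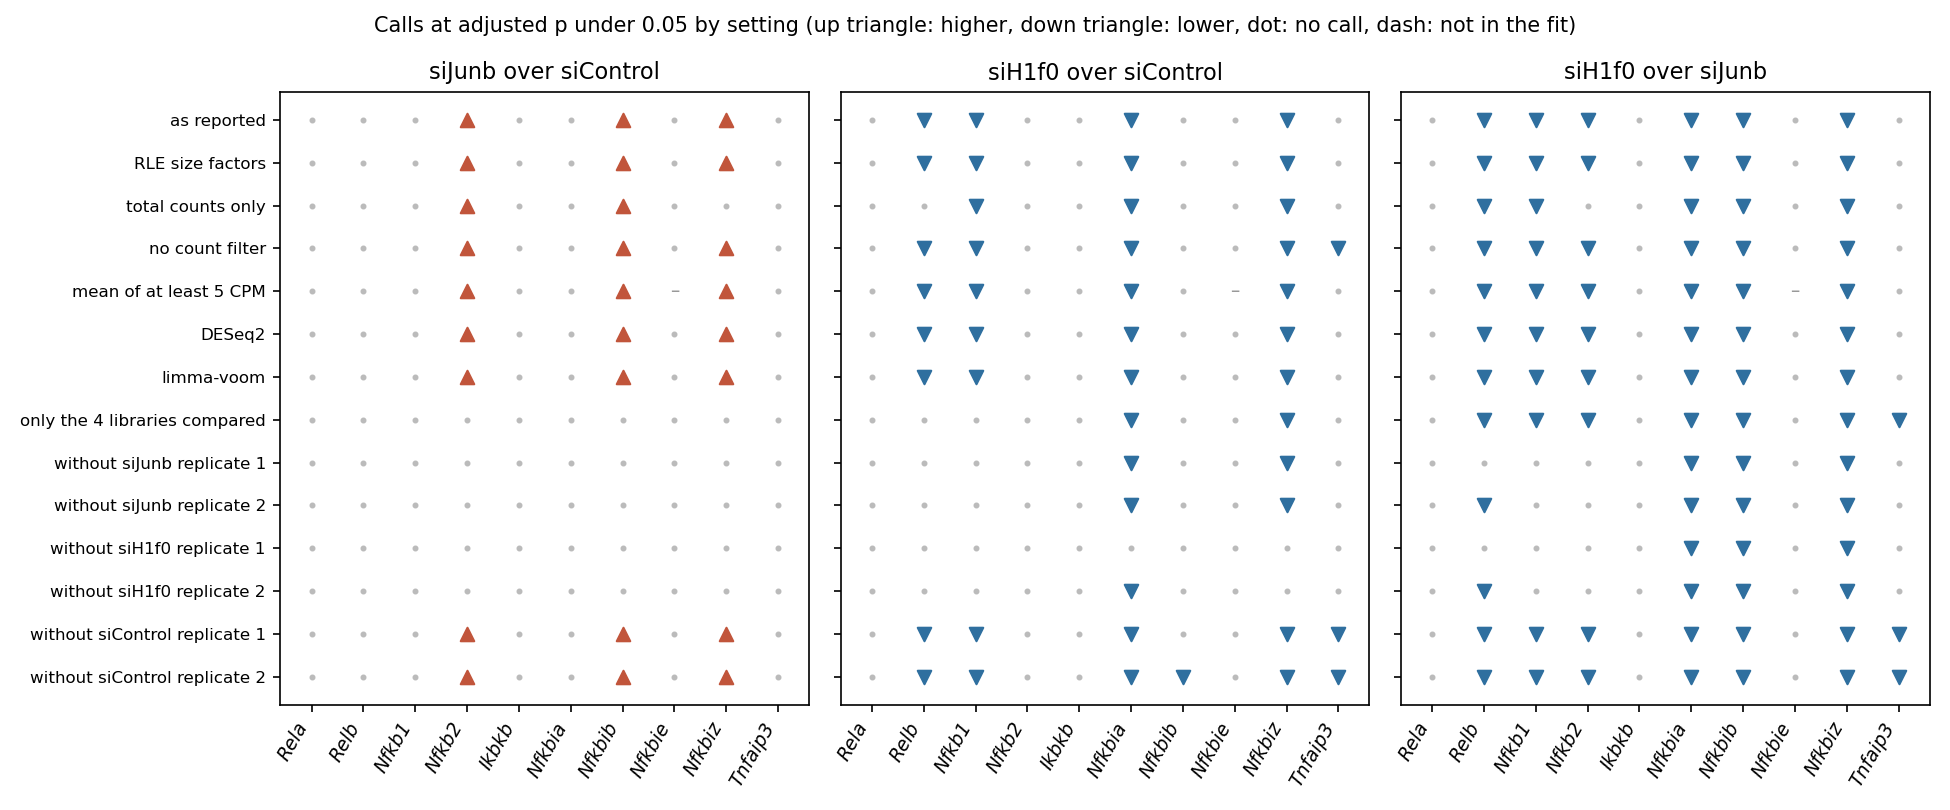
Calls for each gene (columns) as reported and under 13 of the 14 alternatives (rows; the fit with a replicate term is not drawn) in the 3 comparisons. Triangles mark an adjusted p under 0.05, pointing up for higher and down for lower, dots mark no call and a dash marks a gene outside the fit. The columns of Nfkbiz, Nfkbib and Nfkbia hold a down triangle in every row of the right panel, and those of Rela and Ikbkb hold none in any panel.

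The genes with a pattern over the 6 libraries most like that of Nfkbiz were Nckap1, Xrn2 and Adgra2, out of 9911 candidates with a mean of at least 5 CPM. Likeness was the Euclidean distance between log2 CPM profiles, each centred on its own mean, and came to 0.0686, 0.0712 and 0.0767. Nckap1 was at 312 and 318 CPM in siJunb, 228 and 222 CPM in siH1f0, and 275 and 293 CPM in siControl.

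The other genes of the pathway were grouped by role. Of 13 further genes of the Rel and IkB families and of feedback inhibitors, all measured, 0 were called in siJunb or siH1f0 against siControl by edgeR, DESeq2 or limma-voom, and 2 in siJunb and 5 in siH1f0 passed at an unadjusted p under 0.05, as did 31.7% and 22.8% of all genes tested in those comparisons. Between the knockdowns 3 were lower in siH1f0, as were 13.8% of all genes tested. The 3 were Zc3h12a, which encodes an RNase that degrades inflammatory mRNAs (-0.50, adjusted p = 0.00864), the IkB family gene Bcl3 (-0.43, 0.0291) and Tax1bp1, which encodes an adaptor of A20 (-0.18, 0.0197). Without siJunb 2 or siH1f0 2, all 3 lost their calls (adjusted p from 0.0592 to 0.22). The median log2 change of that list was 0.08 in siJunb, -0.03 in siH1f0 and -0.05 between the knockdowns.

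Of 25 kinases and adaptors upstream, 4 rose in siJunb and 0 fell, while 8.63% of all genes tested were called higher and 7.82% lower. The first was Ikbkg, the regulatory subunit of the IKK complex (79.8 ± 2.35 CPM in siJunb against 66.5 ± 2.62 CPM in siControl, SD, n = 2 each, log2 change 0.30, adjusted p = 0.00969). The others were Traf6, a ubiquitin ligase of interleukin-1 signalling (0.28, 0.0328), Myd88, the adaptor of Toll-like and interleukin-1 receptors (0.24, 0.0337), and Chuk, the kinase IKK-alpha (0.19, 0.0352). None of the 4 (Ikbkg, Traf6, Myd88, Chuk) passed once siJunb 1 or siJunb 2 was left out (adjusted p from 0.0743 to 0.269). In siH1f0, 0 of the 25 were called against siControl by edgeR, 1 by DESeq2 (Tab3, adjusted p = 0.0259) and 5 at an unadjusted p under 0.05, which 22.8% of all genes passed. Between the knockdowns 3 were higher and 7 lower in siH1f0, while 12.2% of all genes tested were called higher and 13.8% lower. Among them were Tab3, an adaptor of the kinase TAK1 (-0.45, adjusted p = 0.00505), Myd88 (-0.30, 0.00964), Ripk1, a kinase of the TNF receptor complex (-0.21, 0.0175), and Traf5, a TNF receptor adaptor (0.46, 0.0204). Each of these 4 lost its call without at least 1 siJunb or siH1f0 library (adjusted p up to 0.185), Tab3 only without siH1f0 2 (0.0505).

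Among receptors the calls fell on TNF and interleukin-1 receptor chains and on Tlr2. Of 12 tested, 2 rose in siJunb and 2 in siH1f0, while 8.63% and 2.27% of all genes tested were called higher. In siJunb they were Tnfrsf1b, a TNF receptor (0.33, adjusted p = 0.0156), and Il1rap, the accessory chain of the interleukin-1 receptor (0.25, 0.0449). In siH1f0 they were Il1rap (0.43, 0.0102) and Il1r1, the signalling chain of that receptor (0.53, 0.00762). Both chains of the interleukin-1 receptor were thus higher in siH1f0, with Il1r1 at 13.1 ± 0.524 CPM in siH1f0 against 9.04 ± 0.116 CPM in siControl (SD, n = 2 each). Between the knockdowns Il1r1 was higher (0.42, 0.00698) and Tlr2, a Toll-like receptor, lower (-0.29, 0.0305) in siH1f0, and both calls were lost without siJunb 1, siJunb 2 or siH1f0 2 (adjusted p from 0.051 to 0.212). The siJunb calls were lost without any 1 siJunb or siH1f0 library (adjusted p from 0.0502 to 0.249), the siH1f0 calls without either siH1f0 library (from 0.0786 to 0.135).

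Ligand transcripts were scarce. Of 10 ligand genes 4 passed the count filter, and Tnf, Il1a and Il1b stayed under 0.07 CPM in every library. The list summed to 10.5 and 11.1 CPM in siJunb, 11.7 and 12.5 CPM in siH1f0, and 13.3 and 11.8 CPM in siControl. Lta, the lymphotoxin gene, was lower in siJunb (0.339 ± 0.0734 CPM against 0.950 ± 0.186 CPM in siControl, SD, n = 2 each; log2 change -1.43, adjusted p = 0.0256), a call lost without either siJunb library (0.12 and 0.176). Il33, an interleukin of the interleukin-1 family, was higher in siH1f0 than in siJunb (0.36, adjusted p = 0.0494), a call lost without any 1 siJunb or siH1f0 library (up to 0.301) and with DESeq2 (0.0619).

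NF-kB target genes, which hold chemokine, adhesion and acute-phase genes, were called in a single direction in each comparison of the main fit. Of 22 tested targets, 7 rose and 0 fell in siJunb, and 0 rose and 9 fell in siH1f0, both against siControl, and 0 were higher and 14 lower in siH1f0 than in siJunb. Of all genes tested, 8.63% were called higher and 7.82% lower in siJunb, 2.27% and 4.27% in siH1f0, and 12.2% and 13.8% between the knockdowns. The median log2 change was 0.34 in siJunb, -0.38 in siH1f0 and -0.50 between the knockdowns, against 0.00 for all genes tested in each. The first pair of counts shares its siControl libraries, and this list was drawn up with earlier results of these data known, so its direction is not independent evidence. Log2 changes opposite to the calls were seen for 5 of the 22 in siJunb, 7 in siH1f0 and 3 between the knockdowns. In that last comparison 1 target was called higher in siH1f0 with total counts as the only scaling. The same count of 1 was found with no count filter and with only the 4 libraries compared.

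C3, complement component 3, was at 49.8 and 48.5 CPM in siJunb, 13.5 and 11.5 CPM in siH1f0, and 13.9 and 14.1 CPM in siControl. It was higher in siJunb than in every other library (log2 change 1.85 ± 0.08, adjusted p = 1.02e-05), while siH1f0 and siControl lay close together. Vcam1, a leukocyte adhesion molecule, was at 18.4 and 20.5 CPM in siJunb, 7.33 and 7.32 CPM in siH1f0, and 9.28 and 10.8 CPM in siControl, and no group overlapped another (siJunb over siControl 0.99 ± 0.10, adjusted p = 6.31e-04). The other targets named by rule in siJunb were Ccl7, a monocyte chemokine (0.88, 0.00248), and Csf1, the macrophage growth factor (0.47, 4.78e-04). The calls of C3, Vcam1 and Csf1 held under each of the 14 alternatives, and that of Ccl7 under the 13 whose fit included it.

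In siH1f0 the serum amyloid gene Saa3 gave the smallest p. It was at 10.2 and 12.2 CPM in siJunb, 2.59 and 2.78 CPM in siH1f0, and 8.41 and 7.42 CPM in siControl (siH1f0 over siControl -1.57 ± 0.13, adjusted p = 3.45e-04), and that call held under each of the 14 alternatives. Irf1, an interferon-regulatory transcription factor (-0.37, 0.00712), Cxcl1, a neutrophil chemokine (-0.80, 0.00835), and Gadd45b, a stress-response gene (-0.40, 0.0113), also fell and lost their calls without either siH1f0 library (adjusted p from 0.0843 to 0.166). Between the knockdowns the targets with the smallest p were C3 (-2.03, 3e-06), Saa3 (-2.11, 2.26e-05), Vcam1 (-1.46, 4.7e-05) and Cxcl1 (-1.47, 1.23e-04), which held under each alternative whose fit included them (14, and 13 for Cxcl1). The number of targets that fell in siH1f0 was 11 without siControl 1 and also 11, with 1 that rose, without siControl 2. It was 1 without siH1f0 1 or siH1f0 2, 6 without either siJunb library and 4 with only the 4 libraries compared. In siJunb the number that rose ranged from 4 to 11 over the libraries left out, with 11 without siControl 1 and 4 without siJunb 2, and 1 target fell without siControl 2. Of the 5 leukocyte markers that entered the test, Csf1r was higher in siJunb than in siControl (0.628 ± 0.0697 CPM against 0.242 ± 0.0202 CPM, SD, n = 2 each; log2 change 1.39, adjusted p = 0.0276), and 0 were called in siH1f0. Between the knockdowns Csf1r (-1.47, 0.0176) and Cd14 (9.39 ± 0.918 CPM in siH1f0 against 12.7 ± 0.159 CPM in siJunb; -0.49, 0.0274) were lower and Lyz2 (0.78, 0.0382) higher in siH1f0. These markers and the cardiac and fibroblast markers named above moved in the comparisons in which targets were called, and their part in the target changes was not tested.

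**Figure D4:**
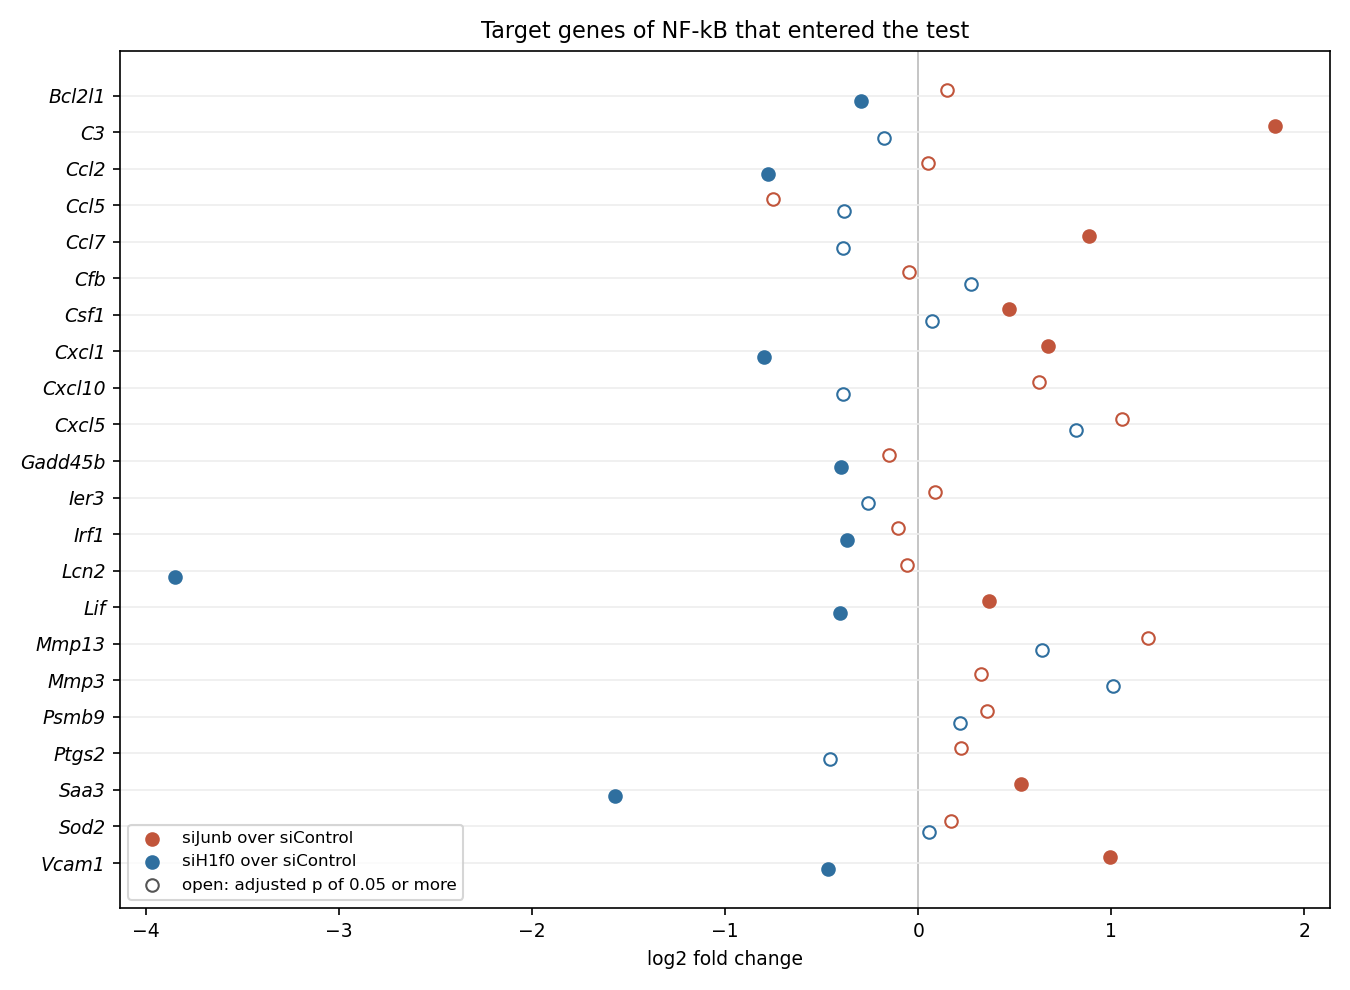
Log2 fold change over siControl (horizontal axis) of the 22 target genes that entered the test, in alphabetical order, with siJunb drawn above siH1f0 in each row. Filled points passed at an adjusted p under 0.05: all 7 for siJunb lie right of 0 and all 9 for siH1f0 left of 0. Lcn2, farthest to the left, had at most 0.291 CPM in any library. Both sets share the same 2 siControl libraries.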

How the data were processed

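The authors deposited raw read counts per gene symbol for 6 libraries, whole numbers that were not normalised, beside a column of gene length. Per the submitters' processing notes, HISAT2, Subread and featureCounts were used with build mm10, without versions. No source used here names the annotation release or strand setting, so reads of Nfkb2 or Nfkbib and of genes on the opposite strand cannot be told apart. Groups and replicate numbers came from the sample titles, which call the replicates biological. No label says that they came from separate cultures, so p-values measure the spread between these libraries, which may be partly technical. Replicates of each group differed beyond counting noise. The main test was the quasi-likelihood F test of edgeR 4.0.16 (R 4.3.3) after filterByExpr and TMM scaling (factors from 0.979 to 1.02). Its model held the group alone and used all 6 libraries (3 residual degrees of freedom). Calls are at an adjusted p under 0.05 (Benjamini-Hochberg, 13427 genes). CPM use plain library totals, and intervals are 95%. Replicate error is the SD over 2 libraries or the SE of the log2 fold change. Alternatives changed the scaling, the count filter, the libraries in the fit, the replicate term or the tool (limma 3.58.1 voom, DESeq2 1.42.0). Simulated counts with known fold changes were used to test the script. The 10 genes and the gene lists were chosen with earlier results of these data known. Up to 4 called genes per list and comparison, those with the smallest p, were named. Promoters are RefSeq windows (GRCm38.p6) without the 50 bases after the start. Markers of other cell types served as a check of the labelled cell type.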

Additional observations from a re-analysis of the deposited data

How the results depend on the processing

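With 2 libraries per group, calls on changes as small as these depend on the estimated spread. The number of genes called in siH1f0 against siControl was 879, but 1921 with no count filter, 325 with only the 4 libraries compared and 550 with the replicate block. For siJunb it was 2209, and 1094 with only the 4 libraries compared. Between the knockdowns it was 3484, and 6416 with only the 4 libraries compared. Leaving out 1 library at a time gave 352 to 5521 genes for siJunb, 116 to 4932 for siH1f0 and 1304 to 6435 between the knockdowns. Of the 10 genes, 4 were called in siH1f0, but 2 with only the 4 libraries compared and 2 with the replicate block, and 0 to 6 with 1 library left out. In siJunb 3 were called, but 0 with only the 4 libraries compared, and 0 to 3 with 1 library left out. Between the knockdowns 6 were called, and 3 to 7 with 1 library left out. The replicate numbers are not said to mark a shared batch, and deviations of same-numbered libraries correlated by 0.06, 0.05 and -0.04 for the 3 pairs of groups, so the block, which also removed the siJunb call of Nfkbiz (adjusted p = 0.0693), is reported here only. Among the 39 genes tracked in 3 comparisons, 0 called changes reversed direction under any alternative run. With 1 library left out at a time, 527 of 702 values stayed on the same side of the threshold, 145 lost their call and 30 gained one. Under the other settings, which include the fits to only the 4 libraries compared, 866 of 924 stayed, 46 lost their call and 12 gained one. Group levels in CPM moved by more than 1 SD in 7 of 30 cases when libraries were scaled by TMM. Nfkbie, with its low counts, was not in the fit restricted to genes averaging 5 CPM or more, and its intervals allow changes that this depth could not show.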
